A study of Mus musculus with 6 samples.

Results

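The chromatin contacts of the odorant receptor gene clusters were examined in cultured mouse B-cell progenitors that lack the transcription factor Erg. Every autosomal bin of about 100 kb that held the start of at least 1 gene whose symbol begins with Olfr was taken as an odorant receptor bin. This gave 357 of the 24067 autosomal bins, of which 356 had enough coverage to be analysed, and they held 1398 of the 1399 annotated autosomal Olfr genes (1128 protein-coding genes and 271 pseudogenes). A receptor bin held a median of 4 Olfr genes and at most 12. Receptor bins whose starts lay no more than 1 Mb apart were joined, which gave 62 clusters on 18 autosomes. Of these clusters, 24 were a single bin, while 12 of at least 10 bins each carried 227 bins (63.8% of the 356) and 1066 receptor genes on 8 chromosomes.

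In situ Hi-C, which ligates neighbouring DNA ends inside intact nuclei and reads each joined pair, had been performed on 2 libraries from each of 3 genotypes. The Erg KO cells were Rag1CreT/+;Erg fl/fl, in which a Cre recombinase expressed from the Rag1 gene deletes the floxed Erg alleles from the common lymphoid progenitor onwards. The CreT control was Rag1CreT/+ and carried the Cre beside unfloxed Erg alleles. The Erg fl/fl control was Rag1Cre+/+;Erg fl/fl and carried the floxed alleles with no Cre. All were of the background given as C56BL/6, with no age stated for a library. Lineage-negative bone marrow of every genotype had been cultured with FL, SCF and IL7 over a layer of OP9 stroma for 8 days, and B220-positive cells were then selected. Replicate 2 of Erg KO and replicate 2 of the Erg fl/fl control were male, and the other 4 libraries were female. The study describes the Erg KO cells as arrested earlier in B-cell development than the controls, so the loss of Erg and the earlier stage cannot be told apart in these libraries. In bulk contact maps a contact made in fewer cells and a weaker contact in every cell also cannot be told apart.

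The libraries held 58335904 and 57259415 read pairs for Erg KO, 62155453 and 68085468 for the CreT control, and 43924865 and 29014581 for the Erg fl/fl control. Contacts between chromosomes (trans) made up 32.3% and 34.6% of autosomal read pairs in Erg KO libraries, against 24.7% and 26.8% in CreT control libraries and 24.3% and 21.6% in Erg fl/fl control libraries. The share was therefore higher in both Erg KO libraries than in any control, and its part in the results on the receptor clusters was not tested. Hi-C holds no RNA, so the cell types were read only from compartment scores, which are positive in active chromatin. Of 12 B-progenitor marker genes, none passed in either direction (2.2% of all bins rose and 2.66% fell), 10 changes were negative with a median of -0.04, and the mean score of their bins was 0.68 to 0.85 in Erg KO libraries and 0.87 to 0.92 in controls. Of 14 genes that mark stromal feeder cells, 1 (Col1a2, a collagen chain) rose, 1 change was negative, the median change was 0.21, and the mean score was 0.26 to 0.51 in Erg KO libraries and 0.19 to 0.33 in controls. The part of feeder cells in the results on the receptor clusters was not tested.

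Odorant receptors are G-protein-coupled receptors through which olfactory sensory neurons detect volatile compounds. They form the largest gene family of the mouse, are laid out in long tandem arrays, and are silent outside the nose apart from a few members. Each sensory neuron chooses 1 allele of 1 receptor gene. In those neurons the remaining arrays are packed into heterochromatin and gather across chromosomes, while enhancers bound by Lhx2, Ebf proteins and Ldb1 act on the chosen gene. Ebf1 is also a master regulator of the B lineage, and its protein was not measured in these libraries. The study reports that Erg-deficient pre-proB cells lacked Ebf1 transcription and, on western blots, had lost the protein. Class I receptors, the older type related to those of fish, lie in a single array on chromosome 7, and class II receptors make up all other clusters.

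The sequences at the start of receptor genes are shown because compartment changes below were largest at a few clusters, and because Ebf proteins, known in both olfactory neurons and the B lineage, bind a defined motif. RefSeq (GRCm38.p6) gave 942 windows for receptor genes, each of 300 bases (250 before the gene start and 50 after it), and 929 of the 1397 receptor symbols were matched. In 680 of these windows (72.2%) the start was an ATG, against 3.41% of 30454 windows of other genes, so most hold the bases before a coding sequence rather than a mapped transcription start. The motif CCCNNGGG (the core bound by Ebf proteins, the same on both strands) occurred in 3.08% of receptor windows and 14.2% of windows of other genes. TAATTA (a homeodomain core, the same on both strands) occurred in 18.7% of receptor windows and 4.85% of the others. TATAAA or TTTATA (the TATA box on either strand) occurred in 41.1% of receptor windows and 12.8% of the others. Among the 262 receptor windows that did not begin at an ATG the shares were 7.63%, 18.3% and 34.4% in the same order of motifs. The windows differed in base composition, with a median GC content of 35% for receptor genes and 53.3% for other genes. A match describes letters only and is not a binding site.
Windows are given for receptor genes in the 4 bins with the largest falls in compartment score among receptor bins that passed the test below. They run 5′ to 3′ on the gene's strand in lower case, with any match to the Ebf core or the TATA box in capitals. Olfr170 lies at chr16:19606617-19606916 on the minus strand, Olfr701 at chr7:106813879-106814178 on the plus strand, Olfr710 at chr7:106948263-106948562 on the minus strand and Olfr631 at chr7:103914812-103915111 on the plus strand.
Olfr170: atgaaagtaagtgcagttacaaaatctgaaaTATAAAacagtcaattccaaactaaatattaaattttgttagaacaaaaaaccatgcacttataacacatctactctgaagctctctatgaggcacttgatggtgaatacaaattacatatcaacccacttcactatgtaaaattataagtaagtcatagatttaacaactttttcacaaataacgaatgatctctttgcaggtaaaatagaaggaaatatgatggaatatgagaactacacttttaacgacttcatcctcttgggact
Olfr701: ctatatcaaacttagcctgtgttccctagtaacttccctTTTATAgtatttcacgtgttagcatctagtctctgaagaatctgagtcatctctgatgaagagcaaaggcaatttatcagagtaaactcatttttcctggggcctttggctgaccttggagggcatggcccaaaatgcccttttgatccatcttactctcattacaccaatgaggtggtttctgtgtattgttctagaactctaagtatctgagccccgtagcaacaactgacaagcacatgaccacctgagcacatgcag
Olfr710: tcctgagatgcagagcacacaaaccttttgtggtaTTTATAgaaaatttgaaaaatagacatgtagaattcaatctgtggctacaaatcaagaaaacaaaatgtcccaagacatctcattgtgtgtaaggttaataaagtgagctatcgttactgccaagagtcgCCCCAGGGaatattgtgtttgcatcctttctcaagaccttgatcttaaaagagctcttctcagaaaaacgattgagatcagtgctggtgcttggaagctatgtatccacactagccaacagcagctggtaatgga
Olfr631: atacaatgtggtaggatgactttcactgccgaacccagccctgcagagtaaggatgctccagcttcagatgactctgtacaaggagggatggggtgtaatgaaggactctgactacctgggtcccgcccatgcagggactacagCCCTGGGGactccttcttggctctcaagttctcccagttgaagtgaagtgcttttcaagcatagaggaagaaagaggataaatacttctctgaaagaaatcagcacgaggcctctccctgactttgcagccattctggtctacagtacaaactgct
The Olfr170 window begins its gene at an ATG and held a TATA match alone, as did Olfr701 with a start that is not an ATG. Olfr710 held both an Ebf core and a TATA match, and Olfr631, a class I receptor, held an Ebf core alone. The 4 windows were chosen with their matches known and do not stand for their bins. The other windows of the Olfr710 bin (Olfr707, Olfr1532-ps1, Olfr6 and Olfr711) and of the Olfr631 bin (Olfr65, Olfr635 and Olfr638) held no Ebf core.

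The compartment score of each bin was computed for each library from the pattern of its contacts along the chromosome. Contacts were first smoothed over windows of 5 bins, so neighbouring bins share data and their changes are not separate events. It has an SD of 1, is positive in gene-rich, active chromatin (compartment A) and negative in gene-poor, inactive chromatin (compartment B). Receptor bins lay mainly in compartment B in every genotype. Their median score was -0.97 and -0.95 in Erg KO libraries, -0.85 and -0.87 in CreT control libraries, and -0.93 and -0.79 in Erg fl/fl control libraries. The share of receptor bins with a negative score was 76.4% and 73.3% in Erg KO, against 72.5% and 72.2% in the CreT control and 74.2% and 71.1% in the Erg fl/fl control. Thus the Erg KO libraries overlapped the controls in this share. Among the other 23288 kept bins 50.5% to 52.0% were negative. The 202 kept bins with vomeronasal receptor genes but no odorant receptor, a second chemosensory family that is likewise silent in blood cells, were negative in 78.7% to 86.1%.

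Receptor bins did not form a single class. When all kept bins were ranked by their mean control score and divided into 10 equal classes, the lowest class held 80 receptor bins and the highest held 12. Of the 356 bins, 260 had a negative mean score in both Erg KO and controls and 88 a positive one in both, while 7 had a negative mean in Erg KO and a positive mean in controls, and 1 the reverse. Among the 12 clusters of at least 10 bins, the lowest control score was that of the 286-gene array at chr2:85300172-90300304, the largest of the genome, with scores of -1.18 and -1.20 in Erg KO, against -1.17 and -1.20 in the CreT control and -1.17 and -1.19 in the Erg fl/fl control. It was followed by the 123-gene cluster at chr9:37699738-40200518, with scores of -1.04 and -1.06 in Erg KO, against -1.11 and -1.09 in the CreT control and -1.11 and -1.22 in the Erg fl/fl control. Highest of the 12 was the 29-gene cluster at chr14:49900393-51100161, with -0.50 and -0.44 in Erg KO, against -0.34 and -0.30 in the CreT control and -0.48 and -0.42 in the Erg fl/fl control. Genotypes overlapped in the first of these clusters, whereas in the chr9 cluster both Erg KO libraries lay above all 4 controls. Score and GC content were related over the 356 receptor bins (Pearson's r = 0.77, Spearman's rho = 0.79, as a description of bins that share libraries).

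**Figure D1:**
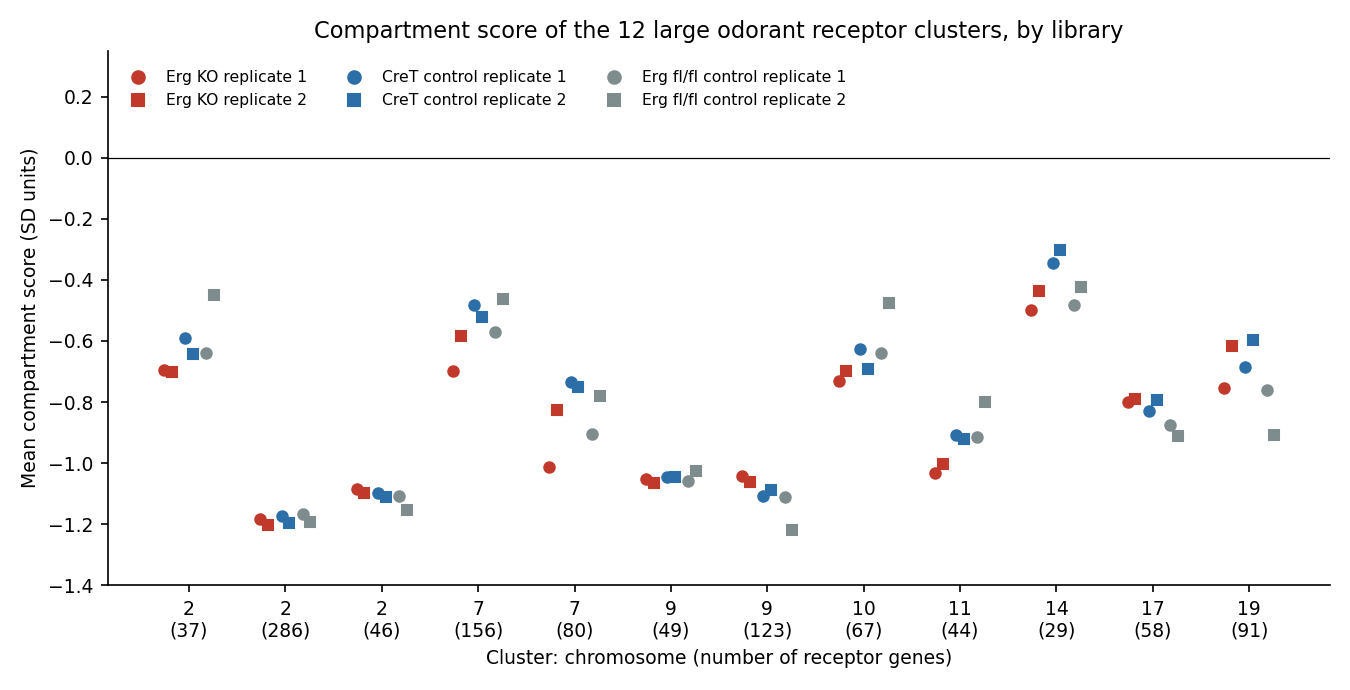
Mean compartment score (in SD units) of each of the 12 receptor clusters of at least 10 bins, one point per library, coloured by genotype (Erg KO, CreT and Erg fl/fl). The array at chr2:85300172-90300304 sat near -1.2 in all 6 libraries, and the single class I cluster on chromosome 7 had both Erg KO libraries below every control.

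The comparison of Erg KO with both controls asked whether the loss of Erg moved the receptor arrays between compartments (limma on scores with group and sex, Benjamini-Hochberg adjustment over all 23644 kept bins). Changes from the fits here and below are adjusted for sex, so they can differ from the difference between the printed library values. No receptor bin rose and 21 fell (5.90% of 356) with an adjusted p under 0.05, whereas 2.2% of all kept bins rose and 2.66% fell. The median change over receptor bins was -0.03, beside 0.01 over all bins. Of the 21, 8 lay on chromosome 7, 6 on chromosome 11, 2 on chromosomes 4 and 13 each, and 1 on chromosomes 6, 10 and 16 each. All 21 calls were lost when the sex term was left out, and no call was made with either CreT control library left out. With replicate 1 of the Erg fl/fl control left out 46 rose and 106 fell, beside 20.2% and 17.4% of all bins. With replicate 1 of Erg KO left out 15 rose and 56 fell, beside 8.65% and 8.62%. With replicate 2 of Erg KO or of the Erg fl/fl control left out 1 rose and 56 fell, beside 7.48% and 8.79%. Against either control alone no receptor bin passed, with 0% of all bins called in both. At an unadjusted p under 0.05 there were 98 receptor bins (27.5%) against the CreT control, beside 25.3% of all bins. Against the Erg fl/fl control there were 132 (37.1%), beside 31.8% of all bins. Between the controls (CreT against Erg fl/fl) there were also 0 calls, with 56 receptor bins (15.7%) at an unadjusted p under 0.05, beside 17.7% of all bins.

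The direction varied with the control class. Classes and changes share the control libraries, which can itself raise the change in low classes. Among the 80 receptor bins of the lowest control class the median change was 0.07 with 0 falls, and 75 of the 80 changes were positive. The mean change in this class was 0.07 for receptor bins and for other bins alike. Among the 116 bins of classes 4 to 6, in the middle of the range, 15 fell (12.9%, beside 2.66% of all bins) with a median of -0.14. The shares of other bins of single classes that fell are not given here. In classes 4, 5 and 6 the mean change was -0.10, -0.21 and -0.14 for receptor bins and -0.03, -0.04 and -0.04 for other bins. Among the 68 bins of classes 7 to 10, 6 fell (8.82%), with a median of -0.04. From class 7 to class 10 the mean change was -0.24, -0.10, -0.0005 and -0.04 for receptor bins. For other bins it was -0.01, 0.02, 0.01 and -0.01. Other bins of like control score had a mean change of 0.01 when weighted as receptor bins fall in the classes, beside a mean of -0.06 for receptor bins. When the classes came from the CreT control and the change was taken against the Erg fl/fl control, so that no library was used for both, the means were -0.04 for receptor bins and 0.00 for the like bins. In single libraries the mean score of receptor bins minus that of like bins was -0.08 and -0.04 in Erg KO, against 0.01 and 0.00 in the CreT control and -0.03 and 0.01 in the Erg fl/fl control. Like bins were matched on the mean control score, so the average of these differences over controls was small by construction. Vomeronasal receptor bins had 0 rises and 7 falls of 202, with a median change of -0.04.

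**Figure D2:**
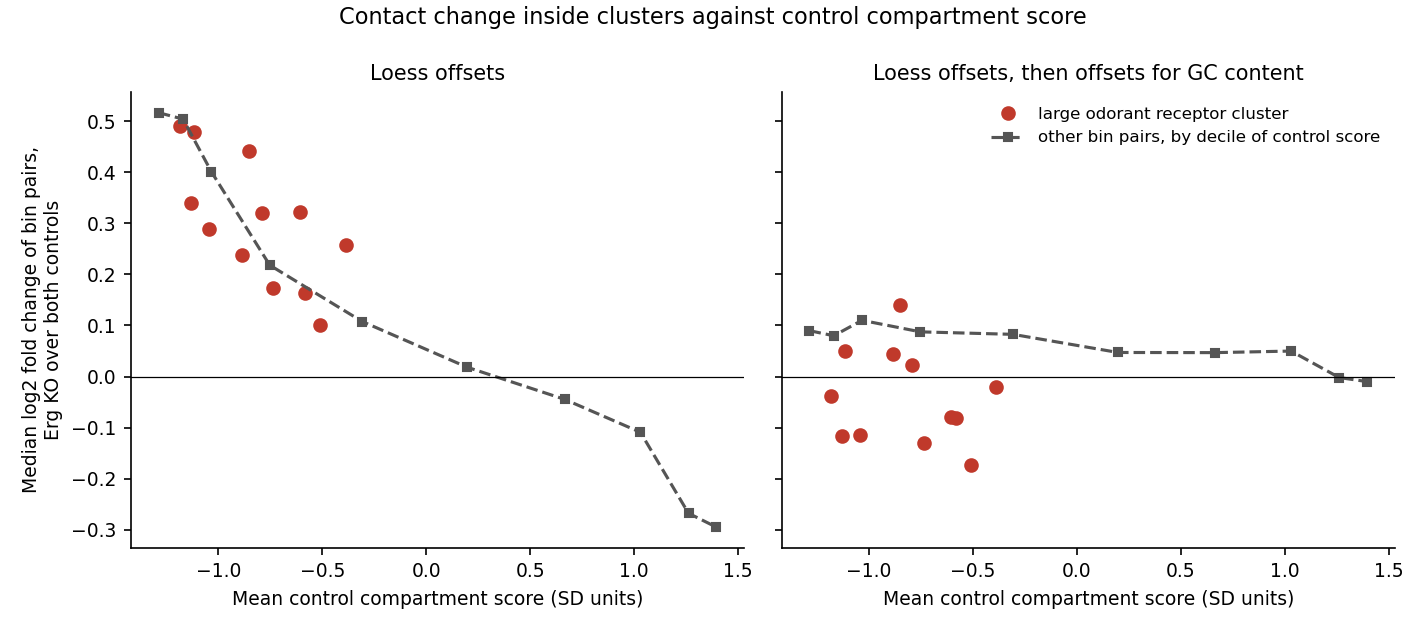
Median log2 change in contact (Erg KO over both controls) of bin pairs inside each of the 12 receptor clusters of at least 10 bins, against mean control compartment score. Other bin pairs are shown by the control class that both bins share, without and with offsets for GC content. Without the offsets the median of the other pairs was 0.52 in the lowest class and -0.29 in the highest.

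The largest fall was at chr16:19600085-19699638, which holds Olfr170 and Olfr171. Its score was -0.56 and -0.17 in Erg KO, against 0.44 and 0.28 in the CreT control and 0.25 and 0.90 in the Erg fl/fl control. All 4 control libraries were positive and both Erg KO libraries negative, and the change was -0.96 (SE 0.08, limma adjusted p = 0.0361). This bin belongs to a cluster of 4 bins and 8 receptors at chr16:19299996-19699638 whose mean was -0.80 and -0.64 in Erg KO, against -0.27 and -0.36 in the CreT control and -0.23 and 0.53 in the Erg fl/fl control. Bins past the end of this cluster that hold no receptor start fell as well. Among them were chr16:19699635-19799930 (-0.85, limma adjusted p = 0.0361) and chr16:19799927-19900084 (-0.60, adjusted p = 0.0427), whose smoothing windows include receptor bins. The bin at chr16:19900081-19999872, whose window holds no receptor bin, also fell (-0.35, adjusted p = 0.0396), so the fall was not confined to receptor bins. The cluster borders the immunoglobulin lambda light chain locus (Igl), and its first bin, with Olfr164, lies 0.0391 Mb from that locus. The 4 receptor bins within 1 Mb of Igl had a mean change of -0.76. The single receptor bin within 1 Mb of the heavy chain locus (Igh) had a change of -0.30, the 4 near Tcra/Tcrd a mean of -0.08 and the 4 near Tcrb a mean of 0.01. Of all 13 receptor bins within 1 Mb of an antigen receptor locus 2 fell (mean change -0.28), and of the other 343 bins 19 fell (mean change -0.05), so the falls were not limited to that neighbourhood.

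On chromosome 7 the receptor bins that fell lay in 3 clusters. In the class II cluster of 80 receptors at chr7:106599900-108899771, the bin at chr7:106800113-106900258 (Olfr700 to Olfr706) scored -0.71 and 0.0040 in Erg KO, against 0.38 and 0.32 in the CreT control and -0.20 and 0.18 in the Erg fl/fl control. Here replicate 1 of Erg KO was below all controls, and replicate 2 lay above 1 Erg fl/fl control library. The change was -0.66 (limma adjusted p = 0.0403). The neighbouring bin at chr7:106900255-106999827 (Olfr707, Olfr710, Olfr6 and Olfr711 among others) scored -0.88 and -0.52 in Erg KO, against -0.27 and -0.24 in the CreT control and -0.64 and -0.26 in the Erg fl/fl control, a change of -0.44 with the same overlap with 1 Erg fl/fl library. Bins before the cluster start that hold no receptor start also fell. Among them were chr7:106300215-106400019 (-0.61, limma adjusted p = 0.0361) and chr7:106400016-106500226 (-0.72, adjusted p = 0.0432). The smoothing window of the second includes a receptor bin, and that of the first does not.

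The class I cluster, with 156 receptors at chr7:102400248-105399733, had 3 bins that fell. Its mean score was -0.70 and -0.58 in Erg KO, against -0.48 and -0.52 in the CreT control and -0.57 and -0.46 in the Erg fl/fl control. Within it, the bin at chr7:103900058-104000808 (Olfr65 and Olfr631 to Olfr638) changed by -0.40, the bin at chr7:104500028-104600159 (Olfr651 to Olfr654) by -0.37 and the bin at chr7:102599947-102699948 (Olfr553 to Olfr557) by -0.26. The last of these scored 0.16 and 0.31 in Erg KO, against 0.46 and 0.45 in the CreT control and 0.35 and 0.55 in the Erg fl/fl control, so it stayed in compartment A in every library. The 7 β-globin genes (chr7:103812524-103853216) lie inside this class I array, 46.8 kb from the bin of Olfr65. The globin genes start in a bin that also holds the starts of Olfr66 and Olfr64, and this receptor bin scored -0.79 in Erg KO and -0.51 in controls, with a change of -0.35 that did not pass.

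**Figure D3:**
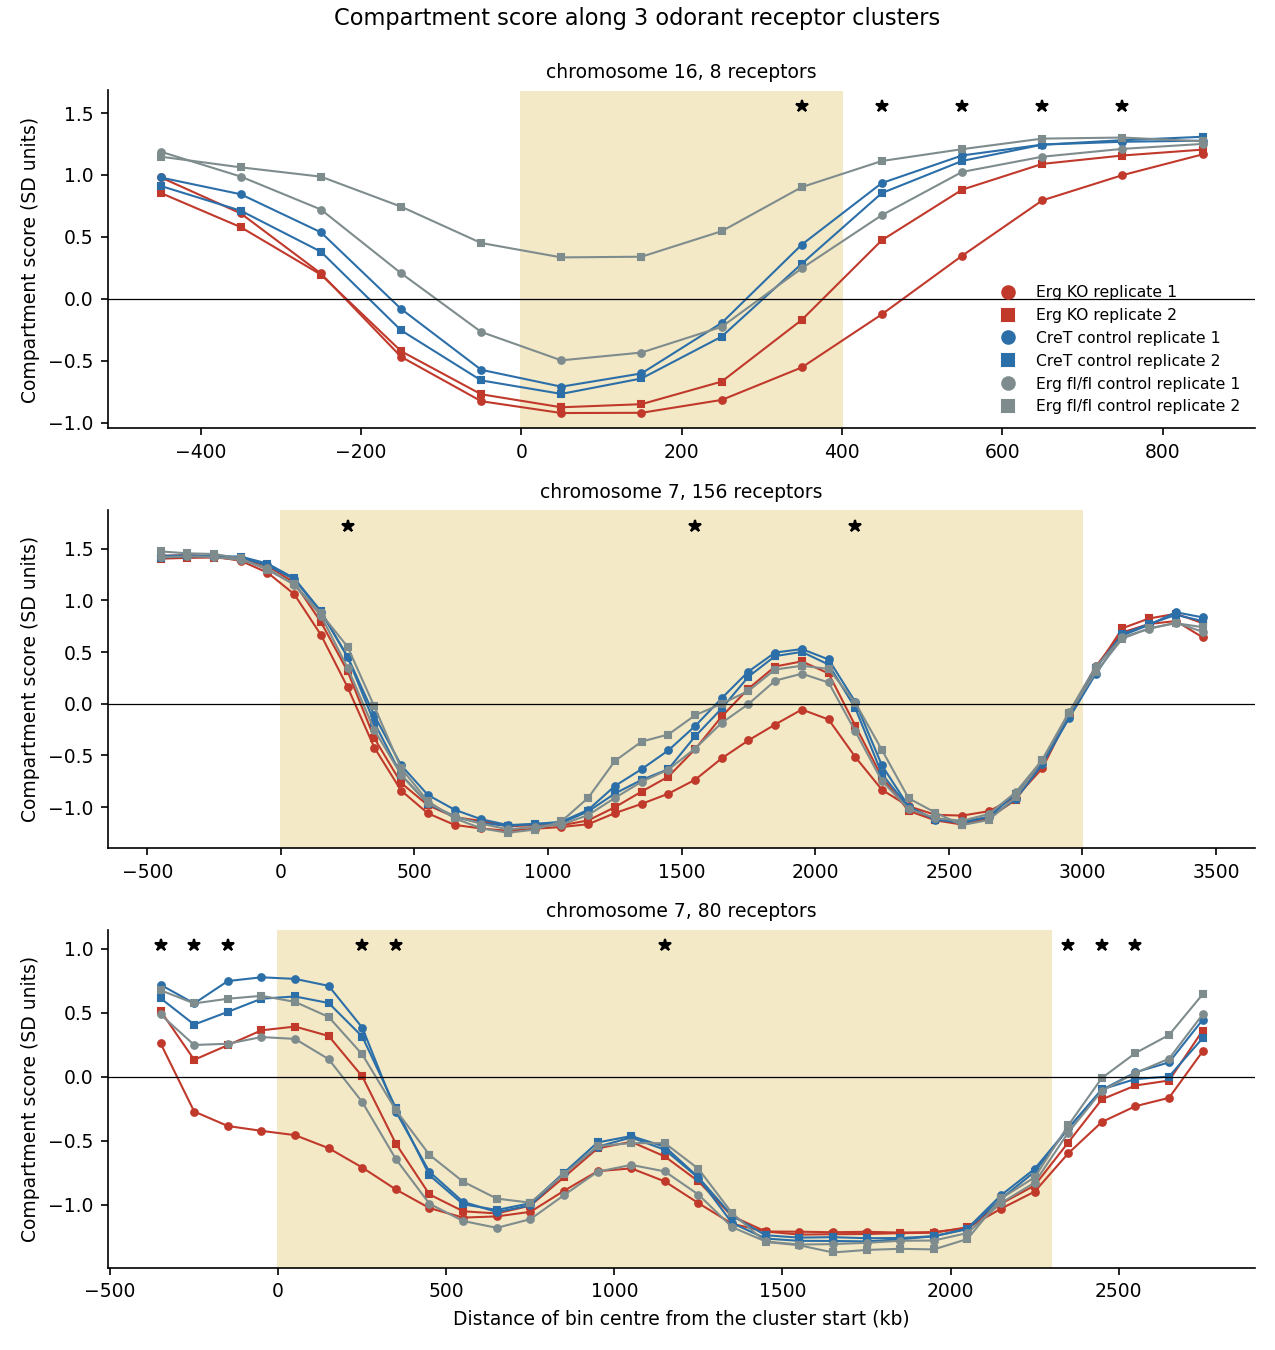
Compartment score of each bin along 3 stretches that hold the chromosome 16 cluster near Igl, the class I cluster and the class II cluster of 80 receptors on chromosome 7, one line per library, plotted against the distance of a bin from the cluster start in kb, with stars over bins whose score passed the test. In the chromosome 16 cluster the Erg KO lines ran below the controls, and the bin of Olfr170 and Olfr171 was negative only in Erg KO.

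The other bins of the 10 largest falls that passed changed by -0.26 to -0.29, each with a limma adjusted p between 0.0370 and 0.0498. They were chr11:74300031-74400238 (Olfr410 to Olfr412), chr4:118799974-118899982 (Olfr1330, Olfr1331, Olfr1333 and Olfr1335), chr7:140300041-140400087 (Olfr525, Olfr527, Olfr530 and Olfr60) and chr6:41700220-41799584 (Olfr459, 0.142 Mb from Tcrb). The bin on chromosome 11 scored -0.72 and -0.60 in Erg KO, against -0.48 and -0.48 in the CreT control and -0.50 and -0.22 in the Erg fl/fl control, with Erg KO lower than each control. The bin on chromosome 4 scored 0.33 and 0.34 in Erg KO, against 0.52 and 0.44 in the CreT control and 0.64 and 0.76 in the Erg fl/fl control, again without overlap. No receptor bin rose. The smallest p-values among positive changes belonged to chr9:39499996-39599571 (Olfr957 to Olfr959, 0.14, limma adjusted p = 0.0670), chr5:75100203-75200064 (Olfr1401-ps1, 0.31, adjusted p = 0.0708) and chr9:39599568-39700072 (Olfr148, Olfr960, Olfr961 and Olfr963 among others, 0.12, adjusted p = 0.0714). The bin on chromosome 5 also holds Pdgfra, one of the stromal marker genes, and scored 0.45 and 0.07 in Erg KO, against -0.07 and -0.07 in the CreT control and 0.15 and 0.04 in the Erg fl/fl control.

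Receptors that are known beyond their cluster were followed individually, and none passed in compartment score. Olfr16 (MOR23, a receptor for lyral that is also expressed in sperm) had -0.62 and -0.48 in Erg KO, against -0.45 and -0.43 in the CreT control and -0.62 and -0.43 in the Erg fl/fl control. Olfr78, a class I receptor of the carotid body and blood vessels, had -0.42 and -0.33 in Erg KO, against -0.11 and -0.18 in the CreT control and -0.25 and -0.03 in the Erg fl/fl control. Both Erg KO libraries were below all controls at Olfr78 (change -0.27, limma adjusted p = 0.0527), whereas Olfr16 overlapped (change -0.11, adjusted p = 0.0910). Olfr1507 (MOR28), long used to study receptor choice, starts within the Tcra/Tcrd locus as annotated and stood in compartment A, with 0.88 and 0.99 in Erg KO, against 1.15 and 1.07 in the CreT control and 1.08 and 1.14 in the Erg fl/fl control (change -0.20, adjusted p = 0.0612). Olfr73 (mOR-EG, a eugenol receptor) had scores between -1.25 and -1.33 in all 6 libraries. Olfr2 (I7, a receptor for octanal) and Olfr17 (P2) share a bin whose change was -0.25 (adjusted p = 0.0948), and Olfr160 (M72) and Olfr151 (M71) share one whose change was -0.08 (adjusted p = 0.182).

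Contacts inside the clusters were tested on counts of bin pairs (edgeR quasi-likelihood fit with group and sex, loess offsets over abundance, Benjamini-Hochberg adjustment over all 429284 tested bin pairs). Within clusters 383 of 2440 tested pairs rose (15.7%) and 16 fell in Erg KO against both controls, beside 6.44% and 6.34% of all pairs. The median log2 change was 0.29 within clusters and 0.00 over all pairs. Against the CreT control 219 rose and 9 fell (3.67% and 3.53% of all pairs), and against the Erg fl/fl control 262 rose and 11 fell (4.18% and 5.19% of all pairs); both contrasts share the Erg KO libraries. Between the controls (CreT against Erg fl/fl) 0 pairs within clusters were called, and 0% of all pairs rose and 0.000233% fell. At an unadjusted p under 0.05 there were 137 pairs within clusters (5.61%), beside 6.46% of all pairs. However, other pairs of like control score and distance rose about as often, with 19.0% called as higher and a mean log2 change of 0.30, beside a mean of 0.26 within clusters. With offsets for the GC content of the bins, chosen after the data were seen, 7 pairs within clusters rose and 11 fell (1.42% and 0.972% of all pairs) and the median was -0.05. With either Erg KO library left out the calls within clusters were lost, as were those over all pairs. The median log2 change within clusters was then 0.38 (replicate 1 left out) and 0.24 (replicate 2 left out). DESeq2 called 38 rises and 1 fall (0.513% and 0.804% of all pairs). With replicate 2 of the Erg fl/fl control left out 120 rose and 4 fell (2.22% and 1.77% of all pairs), and with replicate 1 of the CreT control left out 237 rose and 10 fell (3.84% and 3.97%).

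The share of pairs that rose was smaller at greater distance, within clusters and in like pairs alike. Contacts of a bin with itself rose in 177 of 356 cases (49.7%, beside 46.9% of like pairs), those of neighbouring bins in 75 of 277 (27.1% beside 35.0%) and those 2 to 3 bins apart in 71 of 458 (15.5% beside 19.9%). At 4 to 7 bins 45 of 644 rose (6.99% beside 11%), at 8 to 15 bins 13 of 592 (2.2% beside 5.73%) and at 16 to 31 bins 2 of 113 (1.77% beside 3.07%). The mean log2 change was 0.30 for a bin with itself (0.28 in like pairs), 0.30 at 4 to 7 bins (0.34) and 0.09 at 16 to 31 bins (0.17). For pairs of different bins the mean within clusters was below that of like pairs in each of these distance classes.

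**Figure D4:**
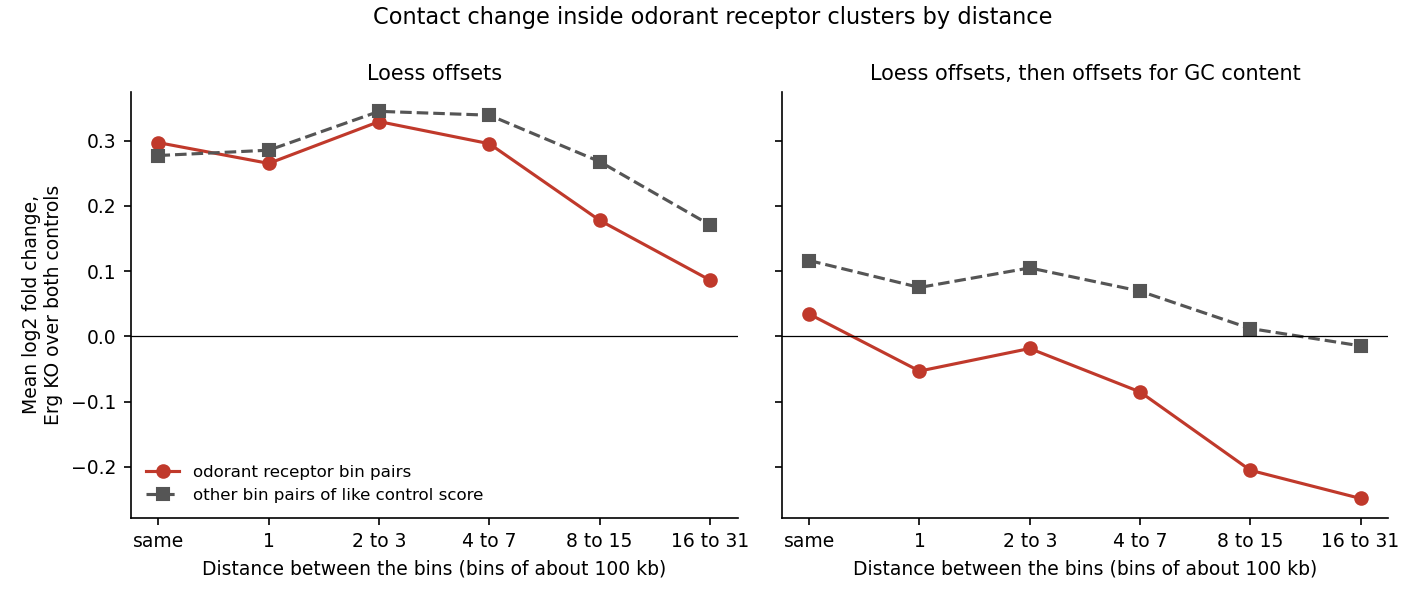
Mean log2 change (Erg KO over both controls) of bin pairs within receptor clusters, by distance in bins of about 100 kb, beside other pairs of like control score and distance, without and with offsets for GC content. Without the offsets the receptor pairs averaged 0.30 within a bin and 0.09 at 16 to 31 bins, and the like pairs 0.28 and 0.17.

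All 12 large clusters had a positive median change over their pairs. It was highest in the 286-gene array of chromosome 2 (0.49, with 110 of 595 pairs higher), the 46-gene cluster at chr2:111199907-112200423 (0.48) and the 58-gene cluster at chr17:37000086-38399890 beside the major histocompatibility complex (0.44). It was lowest in the class I cluster (0.10, with 28 of 344 higher and 3 lower), the 37-gene cluster at chr2:36199677-37400475 (0.16) and the 91-gene cluster at chr19:11800065-14000009 (0.17). The other 6 clusters had medians between 0.24 and 0.34. Across the 12 clusters the median change was related to the control score (r = -0.69, rho = -0.73) and to GC content (r = -0.73, rho = -0.78), and score and GC content were themselves related (r = 0.77), so the 2 could not be separated. These values describe clusters measured in the same 6 libraries. With GC offsets the median stayed positive in 4 of the 12 clusters.

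Individual pairs showed the sizes behind these counts, in counts per library scaled by the fit. At chr7:104899962-104999331 (Olfr667 to Olfr671 of the class I cluster) contacts of the bin with itself were 236 and 238 in Erg KO, against 162 and 140 in the CreT control and 165 and 112 in the Erg fl/fl control. These groups did not overlap, and the log2 change was 0.74 (SE 0.11, edgeR adjusted p = 3.9e-08). At chr2:111299903-111399951 (Olfr1279 to Olfr1282 among others) they were 183 and 131 in Erg KO, against 92.1 and 94.3 in the CreT control and 110 and 91.3 in the Erg fl/fl control, a log2 change of 0.79. The remaining top rises were also contacts of a bin with itself, at chr2:86999851-87099924 (Olfr1104 and Olfr1105 among others, 0.73), chr19:13200211-13299934 (Olfr1463, 0.67) and chr10:129799425-129899915 (Olfr811 to Olfr814, 0.67). None of these 5 passed with GC offsets, where their log2 changes were 0.07 to 0.29.

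Among the falls, 1 spanned a long stretch of the class I array. The bins of Olfr553 to Olfr557 (chr7:102599947-102699948) and of Olfr643 and Olfr646 to Olfr649 (chr7:104099902-104199854), which lie 15 bins apart, shared 13.7 and 9.87 scaled counts in Erg KO, against 31.0 and 25.7 in the CreT control and 25.8 and 41.9 in the Erg fl/fl control. Each Erg KO library was lower than each control, and the log2 change was -1.46 (SE 0.33, edgeR adjusted p = 0.000714; -1.45 with GC offsets, adjusted p = 0.0029). The bins of Olfr1511 to Olfr1513 and of Olfr1507 to Olfr1510 at the edge of Tcra/Tcrd shared 106 and 128 in Erg KO, against 145 and 145 in the CreT control and 165 and 172 in the Erg fl/fl control. Their log2 change was -0.47 (adjusted p = 0.0044), and it held with GC offsets (-0.45, adjusted p = 0.024). The other falls named were Olfr462 and Olfr463 with Olfr464 on chromosome 11 (-0.52), Olfr372 and Olfr373 with Olfr374 on chromosome 8 (-0.44) and Olfr288 with Olfr279, Olfr281 and Olfr282 on chromosome 15 (-0.49), and none of these 3 passed with GC offsets.

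Local contacts, the summed contacts of a bin with bins 200 kb to 2 Mb away as CPM (scaled to the total of such contacts in a library), moved in both directions (edgeR, TMM scaling, adjustment over all 23644 bins). Of 356 receptor bins 117 rose and 80 fell in Erg KO, beside 34.3% and 33.2% of all bins, so the shares (32.9% and 22.5%) were near or below the background. The direction went with the compartment. In the lowest control class 61 of 80 receptor bins rose and 0 fell, and in classes 7 to 10 none rose and 49 of 68 fell. Other bins moved the same way. Their mean log2 change in the lowest class was 0.40, beside 0.32 for receptor bins. In classes 7 to 10 their means ran from -0.12 to -0.37, beside -0.21 to -0.34 for receptor bins. Other bins of like score had a mean log2 change of 0.14, beside 0.05 for receptor bins. The vomeronasal bins had 93 rises and 16 falls of 202. With GC offsets 10 receptor bins rose and 168 fell, beside 15.8% and 17.2% of all bins, and the median log2 change was -0.17, beside 0.07 without the offsets.

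The largest local falls were at the edges of arrays or in small clusters, and all 5 named also passed with GC offsets. The bin of Olfr164 beside Igl (chr16:19299996-19399885) had 20.7 and 23.6 CPM in Erg KO, against 29.7 and 26.6 in the CreT control and 33.4 and 43.4 in the Erg fl/fl control, a log2 change of -0.70 (edgeR adjusted p = 9.2e-07). Both Erg KO libraries lay below all 4 controls. The others were the bins of Olfr9 (chr10:128900089-129000060, -0.67), Olfr70, Olfr71 and Olfr159 (chr4:43699730-43800539, -0.63), Olfr1358 (chr10:78499929-78599771, -0.57) and Olfr543 to Olfr545 at the edge of the class I cluster (chr7:102400248-102500004, -0.56). These 4 bins had positive scores in all 6 libraries.

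The largest local rises lay in compartment B. The bin of the pseudogene Olfr1556-ps1 (chr10:106500271-106599862) had 33.1 and 27.8 CPM in Erg KO, against 20.3 and 20.1 in the CreT control and 22.5 and 16.1 in the Erg fl/fl control (log2 change 0.66, edgeR adjusted p = 2.9e-06). It was the only one of the 5 named rises that passed with GC offsets, at 0.25. The bins of Olfr310 (chr7:86200158-86300153, 0.58), Olfr1285 to Olfr1288 among others (chr2:111399948-111499506, 0.57), Olfr1104 and Olfr1105 (chr2:86999851-87099924, 0.56) and Olfr292 to Olfr294 (chr7:86600085-86699982, 0.55) did not. Of the landmark receptors, the bin of Olfr73 rose by 0.47 (adjusted p = 0.000146) and that of Olfr78 fell by 0.24 (adjusted p = 0.0086), without GC offsets.

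Contacts between clusters of the same chromosome were counted over pairs of 2 Mb blocks, where a block with at least 5 receptor bins of 20 was taken as a receptor block (25 of 1215). Counts were compared after an offset for distance in each library (edgeR, adjustment over all 39424 pairs of blocks). Of the 25 pairs of receptor blocks, 10 rose and 0 fell in Erg KO, beside 16.7% and 14.6% of all pairs, and 20 had a positive change, with a median log2 change of 0.17. Against the CreT control 11 rose and 0 fell (15.5% and 12.6% of all pairs), and against the Erg fl/fl control 9 rose and 1 fell (11.3% and 11% of all pairs). With GC offsets 6 rose and 1 fell (8.26% and 9% of all pairs). With replicate 1 of Erg KO left out the median log2 change was 0.19.

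The 10 pairs linked few clusters, and they share blocks. The block at 88 to 90 Mb of chromosome 2, inside the 286-gene array, and the block at 110 to 112 Mb with the 46-gene cluster had observed over expected contact of 0.980 and 0.853 in Erg KO, against 0.668 and 0.659 in the CreT control and 0.704 and 0.645 in the Erg fl/fl control. Again there was no overlap (log2 change 0.50, SE 0.07, edgeR adjusted p = 1.7e-05), but the change was 0.11 with GC offsets and did not pass (adjusted p = 0.34). The clusters of chromosome 9, at 18 to 20 and 38 to 40 Mb, had 1.52 and 1.41 in Erg KO, against 1.09 and 1.13 in the CreT control and 1.23 and 1.09 in the Erg fl/fl control (log2 change 0.40). This pair was at 0.06 with GC offsets. For whole clusters, expected contact was taken from distance and from the trans totals of the bins. On that measure the clusters of chromosome 2 had 2.87 and 2.47 in Erg KO. Their controls had 2.56 and 2.64 (CreT) and 2.81 and 2.55 (Erg fl/fl). The clusters of chromosome 9 had 2.10 and 2.11 in Erg KO. Their controls had 1.82 and 1.89 (CreT) and 2.13 and 1.71 (Erg fl/fl), so genotypes overlapped on both chromosomes.

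The most frequent partner was the block at 86 to 88 Mb of chromosome 7, which holds Olfr310 and Olfr292 to Olfr294 and made 5 of the 10 pairs. With the class I block at 102 to 104 Mb it had 1.10 and 0.903 in Erg KO, against 0.702 and 0.705 in the CreT control and 0.830 and 0.765 in the Erg fl/fl control (log2 change 0.47). With the block at 108 to 110 Mb it had 1.34 and 1.15 in Erg KO, against 0.982 and 0.979 in the CreT control and 1.02 and 0.881 in the Erg fl/fl control (log2 change 0.41). In both pairs the Erg KO libraries exceeded all controls. With GC offsets the second passed (0.27, adjusted p = 0.0054), as did the pairs with the blocks at 104 to 106 Mb (0.22, adjusted p = 0.037) and 140 to 142 Mb (0.47, adjusted p = 0.0069), while the first did not (0.17, adjusted p = 0.091). The pair with the block at 106 to 108 Mb had a log2 change of 0.41 and 0.15 with GC offsets. On chromosome 11, the blocks at 48 to 50 and 72 to 74 Mb had 1.56 and 1.48 in Erg KO, against 1.39 and 1.39 in the CreT control and 1.32 and 1.23 in the Erg fl/fl control (log2 change 0.21), and this pair passed with GC offsets (0.29, adjusted p = 0.0022). No pair of receptor blocks fell. The smallest p among negative changes belonged to the blocks at 84 to 86 and 88 to 90 Mb of chromosome 2 (-0.15, adjusted p = 0.078), which fell with GC offsets (-0.39, adjusted p = 0.00026), followed by 58 to 60 and 72 to 74 Mb of chromosome 11 (-0.11, adjusted p = 0.22) and 78 to 80 and 128 to 130 Mb of chromosome 10 (-0.07, adjusted p = 0.47).

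Summed over all pairs of receptor bins in different clusters of a chromosome, observed over expected contact was 1.54 and 1.46 in Erg KO, against 1.35 and 1.35 in the CreT control and 1.39 and 1.26 in the Erg fl/fl control. Relative to other bins of like control score it was 1.03 and 0.967 in Erg KO, against 0.867 and 0.859 in the CreT control and 0.930 and 0.870 in the Erg fl/fl control. Hence receptor clusters met less often than like bins in every control library, and about as often as like bins in Erg KO. The difference in means was 0.18 on the log2 scale, with no overlap between Erg KO and control libraries. For clusters more than 10 Mb apart the ratio was 1.01 and 0.957 in Erg KO, against 0.840 and 0.851 in the CreT control and 0.909 and 0.823 in the Erg fl/fl control. Within clusters the ratio was 0.900 and 0.910 in Erg KO, against 0.859 and 0.860 in the CreT control and 0.873 and 0.866 in the Erg fl/fl control, a smaller difference (0.07). This is a ratio of sums, whereas the mean change of single pairs within clusters, which was not above that of like pairs, weights every pair equally. GC offsets were not applied to these summed ratios. Of 23 pairs of clusters with at least 300 read pairs, 6 had both Erg KO libraries above all controls in observed over expected contact and 0 had both below.

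**Figure D5:**
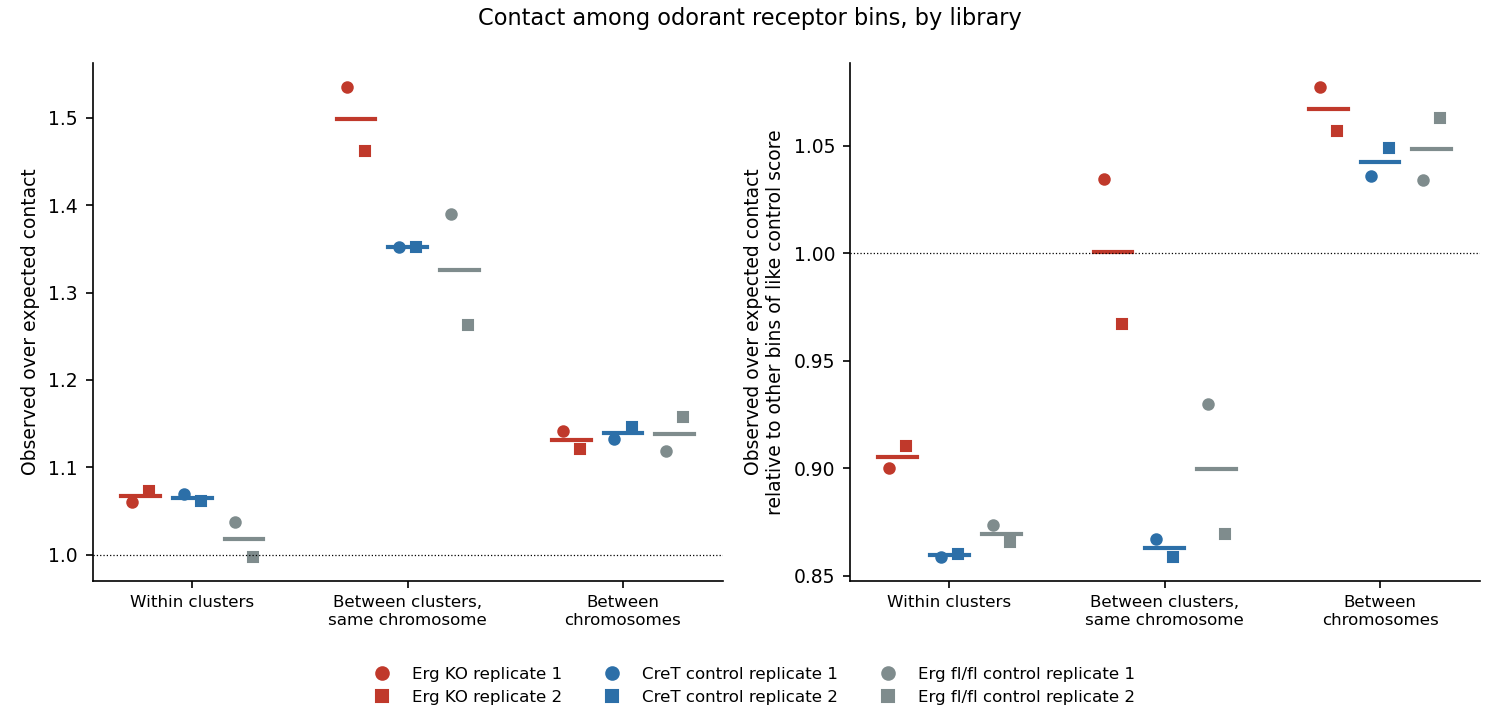
Observed over expected contact of receptor bins relative to other bins of like control score, within clusters, between clusters of a chromosome and between chromosomes, one point per library. Between clusters of a chromosome both Erg KO libraries (1.03 and 0.967) lay above the 4 controls (0.859 to 0.930), while between chromosomes the genotypes overlapped.

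Contacts between chromosomes are what receptor arrays are known for in olfactory neurons. Here, receptor bins of different chromosomes had observed over expected contact of 1.12 to 1.14 in Erg KO libraries and 1.12 to 1.16 in controls. Relative to bins of like control score the ratio was 1.08 and 1.06 in Erg KO, against 1.04 and 1.05 in the CreT control and 1.03 and 1.06 in the Erg fl/fl control, which overlapped. Trans contact of receptor bins was therefore slightly above that of like bins in every library. Among the 61 pairs of large clusters on different chromosomes, 57 had more contact than expected over all libraries and 29 more than like bins. The highest ratio of observed to expected contact was 2.15, between the class I cluster and the 67-gene cluster at chr10:128900089-130300076, and the lowest was 0.763, between that cluster and the cluster on chromosome 19.

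Over the 270 pairs of receptor blocks in trans 0 rose and 4 fell in Erg KO (edgeR, TMM scaling, adjustment over 692429 pairs), beside 0.172% and 1.2% of all pairs. The median log2 change was 0.02, and 14 pairs (5.19%) had an unadjusted p under 0.05, beside 11.6% of all pairs. A pair held a median of only 99.5 read pairs summed over the 6 libraries. The fall with the smallest p joined the block at 140 to 142 Mb of chromosome 7 with that at 78 to 80 Mb of chromosome 10, with 3.04 and 2.88 CPM of trans contacts in Erg KO, against 4.67 and 4.82 in the CreT control and 5.44 and 5.96 in the Erg fl/fl control (log2 change -0.81, SE 0.19, adjusted p = 0.0034). The same block of chromosome 10 fell with 72 to 74 Mb of chromosome 11 (-0.94, adjusted p = 0.0043), the same block of chromosome 7 fell with 128 to 130 Mb of chromosome 10 (-0.59, adjusted p = 0.015), and 58 to 60 Mb of chromosome 11 fell with 20 to 22 Mb of chromosome 13 (-0.68, adjusted p = 0.036). Against the CreT control 0 receptor pairs rose and 2 fell (0.125% and 0.789% of all pairs), and against the Erg fl/fl control 0 rose and 2 fell (0.0334% and 0.49%). None of the 4 passed with GC offsets (0.0557% and 0.115% of all pairs rose and fell), and no fall was called with either Erg KO library or replicate 2 of the Erg fl/fl control left out, while 2 falls were called without replicate 2 of the CreT control. The smallest p among positive changes belonged to 86 to 88 Mb of chromosome 2 with 50 to 52 Mb of chromosome 14 (1.24), 110 to 112 Mb of chromosome 2 with 86 to 88 Mb of chromosome 7 (0.78) and 174 to 176 Mb of chromosome 1 with 108 to 110 Mb of chromosome 7 (0.56), with adjusted p of 0.247 to 0.331. Between the controls (CreT against Erg fl/fl) 0 pairs of receptor blocks were called, beside 0.000144% of all pairs that rose and 0.000433% that fell. At an unadjusted p under 0.05 there were 16 pairs of receptor blocks (5.93%), beside 5.50% of all pairs.

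Genes that control or serve odorant receptors were followed as a list. All 28 genes of a list of regulators and signalling components were placed, and 25 had a positive mean control score. The list holds the enhancer proteins Lhx2, Ldb1 and the Ebf family, the histone demethylase Kdm1a, the heterochromatin proteins Cbx1, Cbx5 and Lbr, the olfactory G protein Gnal, the cyclase Adcy3 and the channel subunits Cnga4 and Cngb1. None rose or fell in compartment score (2.2% and 2.66% of all bins), with a median change of 0.01. In local contacts 0 rose and 21 fell, beside 34.3% and 33.2% of all bins, with a median log2 change of -0.33, and high-scoring bins in general fell in this measure (mean -0.37 for other bins of the highest control class). Ebf1 stood in compartment B by its bin, with a score of -0.68 ± 0.11 in Erg KO (SD, n = 2) and -0.43 ± 0.29 in controls (SD, n = 4), a change that did not pass (limma adjusted p = 0.219).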

How the data were processed

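The authors aligned the read pairs to mm10 with the diffHic package and deposited, for each library, counts of read pairs between restriction-fragment bins of about 100 kb. These raw counts were the only unit used, and their 6 files hold no column of another sample. Bins with 0.3 to 3 times the median coverage were kept. Olfr genes were placed by GENCODE M21, and window sequences came from RefSeq GRCm38.p6. The compartment score was a principal component of the correlation of smoothed observed over expected contacts of each chromosome, turned to gene density. Among the first 3 components the one that best followed gene density was taken, which was the first in every chromosome and library. Scores were tested with limma 3.58.1, and counts with edgeR 4.0.16 (quasi-likelihood), in R 4.3.3, with group and sex as the authors' methods state and Benjamini-Hochberg adjustment. DESeq2 1.42.0 was an alternative. Bin pairs had to sum to at least 10 counts and reach 5 times the abundance of trans contacts, which in practice meant a sum of at least 47, so 2440 of 3317 possible pairs within clusters were tested. Like bins were the other bins of the same of 10 classes of mean control score, weighted as the receptor bins fall in them, and comparisons with them carry no test. The fits were tested on simulated data with 200 changed features each. In these simulations score shifts of 0.5 SD were recovered in 100%, local log2 changes of 0.5 in 47% and bin pair log2 changes of 1 in 32.5%. Log2 changes of 0.7 in block pairs of a chromosome were recovered in 71%. In trans, log2 changes of 1 in block pairs were recovered in 12%, so most changes of that size were missed. Simulated scores had the same noise in every bin and simulated counts a single dispersion, unlike the data. Bin pairs and trans block pairs were simulated for only 50000 and 100000 pairs. Recovery in the data can therefore be lower. The receptor bin at chr16:19499994-19600088, for example, changed by -0.81 and did not pass (limma adjusted p = 0.0571).

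The replicates are biological duplicates according to the methods, and 2 libraries per genotype limit every test. Depth ran between 29014581 and 68085468 read pairs. Replicate numbers did not pair the libraries (correlations of deviations of -0.06, 0.19 and -0.40), so the block was left to the alternatives. Beside the sex term that block marks replicate 2 of the CreT control alone. The members, gene lists and tests were chosen with earlier results of these data known. Genes are named by a rule: the 10 largest score changes and 5 largest local changes each way that passed with the same sign against each control, the 5 smallest p each way for bin and block pairs (up to 3 that did not pass where fewer did), clusters of at least 10 bins, the class I cluster and 8 landmark receptors. Offsets for GC content, classes from the CreT control alone and clusters of at least 2 bins were chosen after the data were seen.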

Additional observations from a re-analysis of the deposited data

Results flagged for a closer look

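Contact between the blocks at 84 to 86 and 88 to 90 Mb of chromosome 2, which hold the start and the far part of the 286-gene array, stood out because the effect of Erg KO differed between the 2 controls. Observed over expected contact was 0.704 and 0.659 in Erg KO, 0.710 and 0.642 in the CreT control and 0.825 and 0.874 in the Erg fl/fl control. Between the controls, CreT minus Erg fl/fl gave a log2 difference of -0.33 (edgeR quasi-likelihood test, adjusted p = 0.035 over all pairs of blocks of a chromosome), so Erg KO was lower than the Erg fl/fl control alone (-0.32, adjusted p = 0.0024) and level with the CreT control (0.02, adjusted p = 0.91). This was 1 of 25 pairs of receptor blocks, beside 0.743% of all pairs of blocks that were lower in the CreT control than in the Erg fl/fl control.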

How the results depend on the processing

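Several counts of calls depended on the processing; the causes were not tested. Without the sex term 0 scores fell (0% of all bins), and 177 bin pairs within clusters rose and 6 fell (3.02% and 3.08% of all pairs). In local contacts 60 receptor bins then rose, beside 23.2% of all bins. The replicate block gave no separate result, because beside the sex term it marks replicate 2 of the CreT control alone. Its fit was in effect that without this library, with a median score change of -0.03 over receptor bins in both. With GC offsets 7 bin pairs rose, 6 block pairs of a chromosome rose and 1 fell, 0 fell in trans, and 10 bins rose and 168 fell in local contacts. The local change of the bin at chr2:86999851-87099924 was then -0.000527. DESeq2 gave 38 bin pairs that rose and 1 that fell (0.513% and 0.804% of all pairs), and 75 local rises (27.2% of all bins). TMM scaling gave 8 bin pairs and 6 block pairs of a chromosome that fell. Blocks of 1 Mb gave 23 rises and 4 falls within chromosomes (7.94% and 6.61% of all pairs) and 0 falls in trans (0.00378% of all pairs).

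With 1 library left out at a time, scores gave 0 to 46 rises and 0 to 106 falls, bin pairs 0 to 417 rises and 0 to 20 falls, block pairs of a chromosome 6 to 12 rises and 0 to 1 falls, block pairs in trans 0 to 3 falls, and local contacts 81 to 138 rises and 64 to 96 falls. Without 1 of the 2 male libraries, the sex term absorbs the other. The 3 summed ratios to like bins kept their direction under other classes, coverage limits and cluster gaps, with clusters of at least 2 bins and without each library in turn, and GC offsets were not applied to them. With GC offsets the changes that had not passed at 58 to 60 and 72 to 74 Mb of chromosome 11 and at 78 to 80 and 128 to 130 Mb of chromosome 10 were 0.05 and 0.05, against -0.11 and -0.07 without them. Trans pairs held a median of 99.5 read pairs, and 2 libraries per genotype limit every fit.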
